A study of Mus musculus with 6 samples.

Results

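Fibronectin is a large adhesive glycoprotein that cells assemble into fibrils, and matricellular proteins are secreted molecules that sit in the matrix and modify how cells attach to it and receive signals, rather than carrying load. The genes sought were Fn1 (fibronectin), Sparc (a collagen-binding protein also called osteonectin), Postn (periostin), Tnc (tenascin C), the thrombospondin genes Thbs1 and Thbs2, the CCN family genes Ccn1 and Ccn2, Spp1 (osteopontin) and Spon1 (F-spondin). They were chosen by symbol, as every probe set whose platform annotation gave 1 of these 10 symbols and no other. This found 7 genes of 8251 with a symbol of their own, read by 8 of 12422 probe sets: Fn1, Sparc, Postn, Thbs2, Ccn1 and Ccn2 with 1 probe set each and Tnc with 2. Spp1 and Spon1 had no such match and were not analysed here, and Thbs1 was matched only by a probe set that is also assigned to another gene.

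Total RNA came from lung tissue dissected from mouse embryos at day E11.5, with no treatment or genetic change stated, and was measured on 6 arrays, 1 sample per array. The branching region was taken from the lungs of both sides (3 arrays), and the main bronchi plus a portion of the trachea made up the non-branching region (3 arrays). The strain, the number of embryos pooled and the origin of the replicates are not given in the labels, so a p-value here reflects how far these arrays vary, which may be technical variation alone. In the early lung, fibronectin lies around the clefts between buds and takes part in their formation, tenascin C is deposited around growing epithelium and mesenchyme, and periostin is made by mesenchymal cells of connective tissue. The comparison asked which of these genes differ in signal between the 2 regions. Dissected tissue mixes epithelium, mesenchyme, muscle, vessels and blood, and in such samples fewer cells of a type and less RNA per cell cannot be told apart.

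RefSeq promoter sequences (GRCm38.p6, 250 bases before to 50 after the start) were held for 5 of the 7 measured genes: Postn, Tnc, Thbs2, Sparc and Ccn1. They are shown for Postn, Tnc and Thbs2, the members with a promoter on record whose branching values all lay below their non-branching values, and for Sparc, whose values overlapped. Capitals mark matches to TATAAA (the TATA box), to GGAATG (a TEAD core), to TGANTCA (AP-1), to CAGACA (a SMAD-type element) or to the CArG box of serum response factor, on either strand, so that TGTCTG and TTTATA are matches on the opposite strand.
Postn, downstream start, chr3:54360857-54361156, plus strand: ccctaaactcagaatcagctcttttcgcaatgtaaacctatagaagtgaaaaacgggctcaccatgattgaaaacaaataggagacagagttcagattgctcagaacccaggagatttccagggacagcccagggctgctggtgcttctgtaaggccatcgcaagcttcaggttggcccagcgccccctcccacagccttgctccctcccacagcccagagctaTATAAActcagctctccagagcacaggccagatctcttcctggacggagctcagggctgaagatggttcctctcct
Tnc, chr4:64046966-64047265, minus strand: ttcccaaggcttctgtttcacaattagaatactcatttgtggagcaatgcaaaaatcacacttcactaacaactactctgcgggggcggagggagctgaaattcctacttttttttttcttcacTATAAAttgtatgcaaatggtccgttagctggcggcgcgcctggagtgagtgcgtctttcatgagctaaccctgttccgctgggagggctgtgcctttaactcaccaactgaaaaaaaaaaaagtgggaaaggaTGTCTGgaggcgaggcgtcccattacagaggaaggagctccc
Thbs2, chr17:14694213-14694512, minus strand: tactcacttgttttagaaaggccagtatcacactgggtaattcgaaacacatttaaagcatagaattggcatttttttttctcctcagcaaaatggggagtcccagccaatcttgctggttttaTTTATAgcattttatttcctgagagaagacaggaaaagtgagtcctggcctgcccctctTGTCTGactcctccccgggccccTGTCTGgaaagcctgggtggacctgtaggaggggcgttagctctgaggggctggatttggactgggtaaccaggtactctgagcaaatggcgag
Sparc, chr11:55420031-55420330, minus strand: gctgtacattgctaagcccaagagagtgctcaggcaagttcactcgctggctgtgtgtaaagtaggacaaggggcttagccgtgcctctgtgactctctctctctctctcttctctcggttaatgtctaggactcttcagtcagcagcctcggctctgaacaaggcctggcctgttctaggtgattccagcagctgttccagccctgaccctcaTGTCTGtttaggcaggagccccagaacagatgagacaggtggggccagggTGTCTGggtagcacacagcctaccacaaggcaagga
The downstream Postn start had TATAAA 26 bases upstream, while the Postn window at the gene's first start (chr3:54359017-54359316) held none of the motifs in capitals. The Ccn1 window, not shown, had TATAAA 25 bases upstream of the start and 1 GGAATG match. Thbs2 and Sparc each held 2 CAGACA matches and the Tnc window shown held 1. The TATAAA matches of Tnc and Thbs2 lay 126 bases upstream of the start, that of Thbs2 on the opposite strand. A second Tnc start, not shown (chr4:64046887-64047186), had TATAAA 205 bases upstream and 2 CAGACA matches. Among 32851 promoter windows of the same length, 21.0% held CAGACA, 13.6% TATAAA, 14.7% GGAATG, 7.81% TGANTCA and 1.63% a CArG box. No match to GGAATG or to TGANTCA and no CArG box lay in the 4 windows shown. This says only that those letters are not in these 300 bases. CACCC, searched too but not capitalised, was in 57.5% of the windows and matched once each in Thbs2, Sparc and the first Postn start. A match is a description of the letters.

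No member passed the test, and 4 of the 6 tested member probe sets, those of Fn1, Postn, Tnc and Thbs2, had all 3 branching values below all 3 non-branching values. A separation of this kind in this direction was found for 11.0% of all 9316 probe sets tested. With limma's moderated test, 0 of the 6 were lower and 0 higher at an adjusted p under 0.05, against 1.13% of all probe sets lower and 0.902% higher. At an unadjusted p under 0.05, 4 of the 6 were lower, against 7.70% of all, and at an adjusted p under 0.10 it was 3 of the 6 (Fn1, Postn and Tnc), against 2.09%. The log2 difference, branching minus non-branching, was below 0 for all 6 tested, with a median of -0.68, while the median of all probe sets was -0.0046 and 50.4% of them were below 0. The 6 include Ccn1, which was below background on every array, so its sign (log2 difference -0.16) cannot be read as a difference. They also include Thbs2, which was below background on all 3 branching arrays. The remaining 2 probe sets, of Ccn2 and the second one of Tnc, were among the dimmest 25% and were not tested. These shares describe 6 probe sets that cleared a filter on signal and share the same arrays. The members, and the gene lists below, were chosen with earlier results of these data known. Their shares beside those of all probe sets are therefore a description and no test of enrichment.

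**Figure D1:**
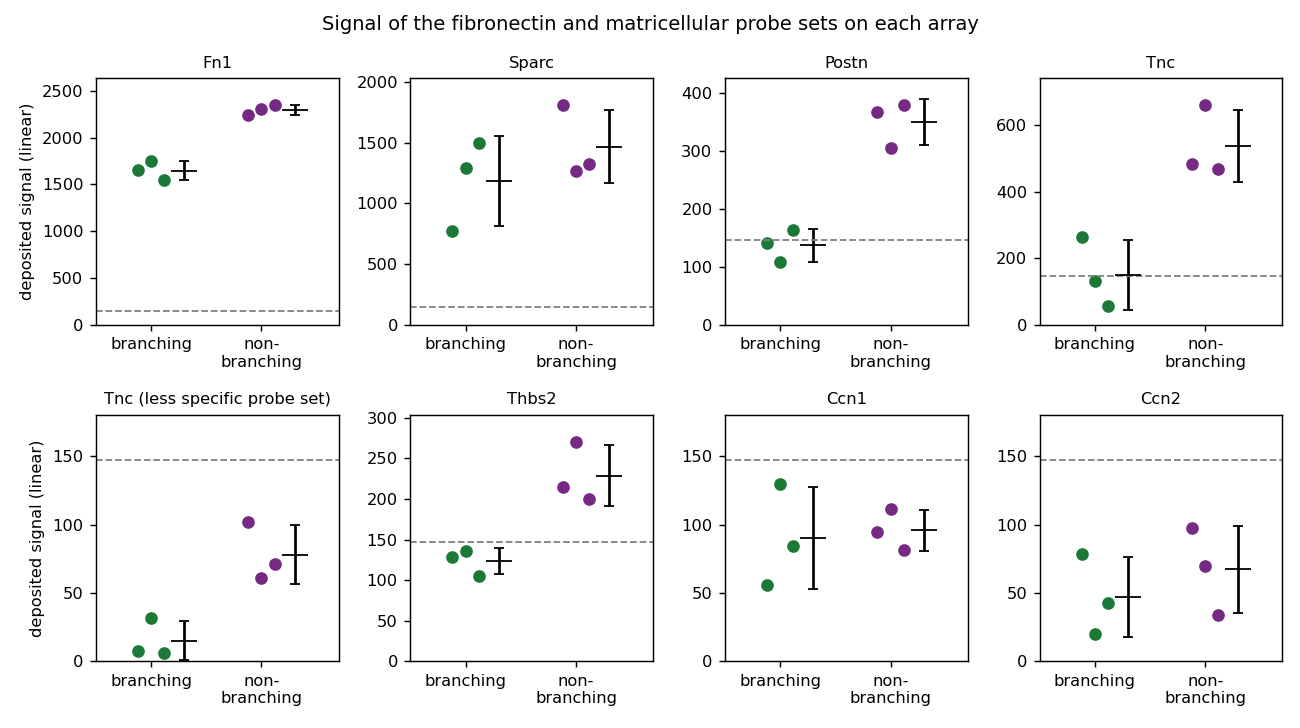
Deposited signal (linear scale, starting at 0) of the 8 member probe sets on each of the 3 branching and 3 non-branching arrays. Points are arrays, bars are the mean with the SD, and the dashed line is the background level of 147; Fn1, Postn, Thbs2 and both probe sets of Tnc separate the regions, and Ccn1, Ccn2 and the second probe set of Tnc stay below the line on every array.

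Fn1 (Entrez gene 14268), which encodes the fibronectin of matrix fibrils, had signals of 1651, 1746 and 1545 on branching replicates 1 to 3 and of 2247, 2303 and 2352 on non-branching replicates 1 to 3. The groups did not overlap, and the arrays of each region lay close together. The means were 1647 ± 101 (SD, n = 3) in branching and 2301 ± 52.4 in non-branching. The log2 difference was -0.48 ± 0.10 (SE), which missed the threshold narrowly (limma adjusted p = 0.0509). Its 95% interval ran from -0.72 to -0.25, a non-branching signal between 1.19 and 1.64 times the branching one. Fn1 stood at rank 193 by p among all probe sets tested. It passed in a fit to the brighter 50% of probe sets (adjusted p = 0.0407), with values floored at 64 (adjusted p = 0.0449) and with array weights (adjusted p = 0.0355), in none of the 6 fits that left out 1 array, and not without a variance trend (adjusted p = 0.264). The difference itself stayed between -0.53 and -0.44 in every processing tried.

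Postn (Entrez gene 50706) encodes periostin, a secreted protein that binds collagen and integrins in connective tissue. Its signals were 140, 108 and 164 on branching replicates 1 to 3 and 367, 305 and 379.5 on non-branching replicates 1 to 3. All branching values were below all non-branching values. In branching, however, 1 of 3 arrays was above the background level of 147, taken from control probe sets that read no mouse transcript, and the mean of 137 ± 28.4 (SD, n = 3) was not. The non-branching mean was 350.5 ± 39.6. The measured log2 difference was -1.37 ± 0.31 (SE, limma adjusted p = 0.0627), with a 95% interval from -2.06 to -0.67. With the dim branching arrays raised to the background level, the ratio of non-branching to branching was 2.29. Postn passed in the fit to the brighter 50% of probe sets (adjusted p = 0.0447) and in none of the 6 omissions of an array, where the adjusted p ran from 0.0981 to 0.233. Its branching values lay below the array medians of 212 to 229 and its non-branching values above them. It thus cleared the filter on the brighter 50% through its non-branching signal, and that pass adds no support.

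Tnc (Entrez gene 21923), the gene of tenascin C, a hexameric protein that modulates adhesion to fibronectin, had the largest measured difference of the members. Its brighter probe set gave 263, 131 and 56.0 on branching replicates 1 to 3 and 482.5, 661 and 467 on non-branching replicates 1 to 3. The groups did not overlap, but the branching arrays spread widely, with a coefficient of variation of 69.7% against 20.1% in non-branching. The means were 150.0 ± 105 (SD, n = 3) and 537 ± 108. The log2 difference was -2.09 ± 0.50 (SE, limma adjusted p = 0.0746), with a 95% interval from -3.22 to -0.96, or a ratio between 1.94 and 9.33. Since 1 of 3 branching arrays was above background, the ratio with the dim arrays raised to that level was 2.97. Branching replicate 1 was the high array: without it the difference was -2.63 and the adjusted p 0.0282, and with array weights the adjusted p was 0.0422. Without branching replicate 3 the difference was -1.51 and the adjusted p 0.122. Tnc did not pass when any array other than branching replicate 1 was left out, with an adjusted p of up to 0.237. Nor did it pass without the variance trend (adjusted p = 0.249) or without the filter on dim probe sets (adjusted p = 0.204).

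A second Tnc probe set, whose name marks a design less specific for 1 transcript, was dim on every array. It gave 7.30, 31.6 and 6.40 on branching replicates 1 to 3 and 102, 61.0 and 71.3 on non-branching replicates 1 to 3. Its branching values were again the lower ones with no overlap, but all 6 lie below the background level, so no fold is given.

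Thbs2 (Entrez gene 21826) encodes thrombospondin 2, a secreted trimeric protein that binds matrix proteases and affects collagen fibril assembly. It had signals of 129, 136 and 106 on branching replicates 1 to 3 and of 215, 271 and 200.1 on non-branching replicates 1 to 3. The 3 non-branching arrays were above background and the 3 branching arrays were not. The means were 124 ± 15.9 (SD, n = 3) and 229 ± 37.2. With the branching arrays raised to the background level, the ratio of non-branching to branching was 1.54. The measured log2 difference of -0.88 ± 0.34 (SE) did not pass (limma adjusted p = 0.274). Nor did it under any of the 15 other processings that tested it, where the adjusted p ran from 0.170 to 0.517.

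Sparc (Entrez gene 20692), whose product binds collagen during its secretion and assembly, did not separate the regions. Its signals were 777, 1292 and 1497 on branching replicates 1 to 3 and 1814, 1271 and 1323 on non-branching replicates 1 to 3, all well above background. Branching replicate 1 was the lowest of the 6 arrays and non-branching replicate 1 the highest, and the other 4 values interleaved. The means were 1189 ± 371 (SD, n = 3) and 1469 ± 299. The log2 difference of -0.34 ± 0.24 (SE) did not pass (limma adjusted p = 0.588), and its 95% interval from -0.89 to 0.21 includes differences of either sign. Without branching replicate 1 it was -0.06, and without non-branching replicate 1 it was -0.18.

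The CCN genes Ccn1 (Entrez gene 16007) and Ccn2 (Entrez gene 14219) encode secreted cysteine-rich proteins that bind integrins and respond quickly to growth factors and to stretch. The Ccn1 signals were 55.9, 130 and 84.2 on branching replicates 1 to 3 and 94.3, 111 and 81.7 on non-branching replicates 1 to 3 (limma adjusted p = 0.930). The Ccn2 signals were 78.3, 20.0 and 42.4 in branching and 97.8, 69.8 and 34.2 in non-branching, and Ccn2 was too dim to be tested. Both genes were at or below the background level on all 6 arrays and their groups overlapped, so no region difference was detectable for them at this signal and no fold is given. This gives no evidence about CCN transcripts below the level that these probe sets resolve.

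**Figure D2:**
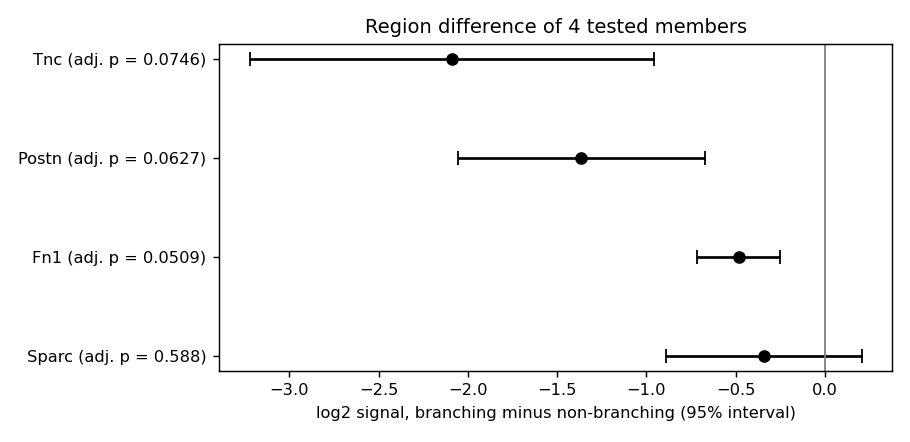
Difference of log2 signal, branching minus non-branching, with its 95% interval from the moderated fit, for the 4 tested members with an array above background in each region. The measured differences of Tnc (-2.09), Postn (-1.37) and Fn1 (-0.48) have intervals below 0 and that of Sparc spans 0; 1 of 3 branching arrays of Tnc and of Postn is above background, so with the dim arrays raised to that level their ratios are 2.97 and 2.29.

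The 5 tested members with any array above background differed in how closely their replicates lay together. The coefficient of variation in branching was 6.11% for Fn1, 12.9% for Thbs2, 20.6% for Postn, 31.2% for Sparc and 69.7% for Tnc, and in non-branching it was 2.28%, 16.3%, 11.3%, 20.4% and 20.1%. The branching spreads of Thbs2 (0 of 3 arrays above background), Postn and Tnc (1 of 3 each) include values at or below background. That of Tnc also includes replicate 1, which read 263. Fn1 had the smallest spread in both regions together with a difference smaller than those of Postn, Tnc and Thbs2. Fn1, Postn and Tnc all had an adjusted p between the 2 thresholds of 0.05 and 0.10, and which of them passed changed with the filter on dim probe sets, the floor, array weights or the omission of 1 array.

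**Figure D3:**
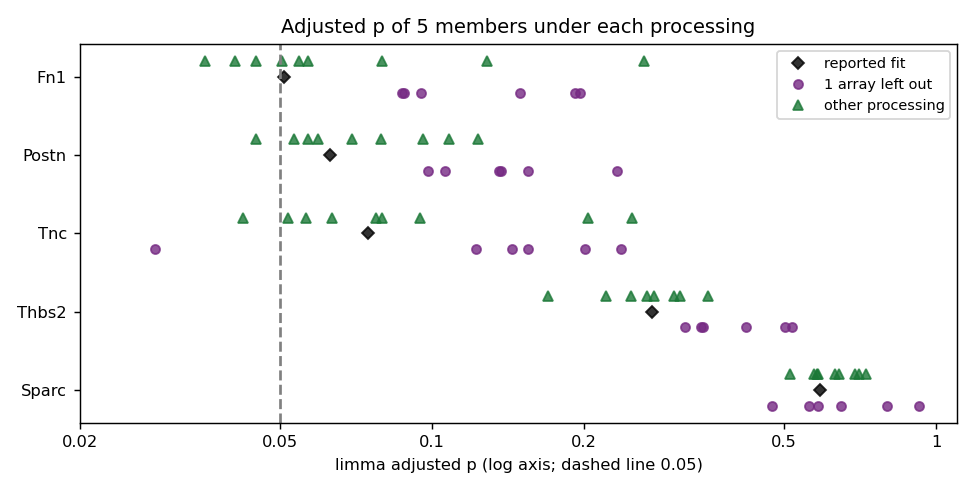
limma adjusted p (log axis) of 5 members in the reported fit (diamonds), with 1 array left out (circles) and under other processing (triangles), with the threshold of 0.05 dashed. Fn1, Postn and Tnc have points on either side of the line, and all points of Thbs2 and Sparc lie to its right.

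Related genes of the matrix included some that did pass. Of 18 other matricellular and adhesive matrix genes tested (23 on the array), 3 fell, 1 rose and 14 did not pass, with a median log2 difference of -0.58, against the shares of 1.13% and 0.902% above. Mgp, the matrix Gla protein gene of cartilage and vessel walls, averaged 2358 ± 221 (SD, n = 3) in non-branching and 534 ± 55.1 in branching on a less specific probe set, and its log2 signal fell by 2.14 ± 0.14 (SE, limma adjusted p = 3.20e-04). Smoc2, a calcium-binding protein gene of the same family as Sparc, fell by 1.44 ± 0.18 (adjusted p = 0.00503), from 2012 ± 498 to 727 ± 68.5. Fbln2, which encodes the fibronectin-binding protein fibulin 2, fell by 0.94 ± 0.17 (adjusted p = 0.0229), and its adjusted p was 0.114 without non-branching replicate 3. Tgfbi, a gene induced by TGF-beta whose product has the fasciclin domains also found in periostin, rose by 1.22 ± 0.19 (adjusted p = 0.0138), from 358 ± 46.2 to 834.5 ± 105, and its adjusted p was 0.0783 without branching replicate 3. Mgp and Smoc2 passed in all 6 omissions of an array, Tgfbi in 5 and Fbln2 in 2. Without the variance trend Mgp passed (adjusted p = 0.0398) and the other 3 did not.

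Of 18 receptors and binding partners tested (23 on the array), 1 rose, 2 fell and 15 did not pass (median -0.21), where 0.902% of all probe sets rose and 1.13% fell. Sdc2, the gene of syndecan 2, a heparan sulfate proteoglycan that takes part in fibronectin assembly, rose by 0.74 ± 0.15 in log2 signal (SE of 3 against 3 arrays, limma adjusted p = 0.0392). Lrp1, an endocytic receptor gene that clears thrombospondins, fell by 0.52 ± 0.10 (adjusted p = 0.0361), and App, the amyloid precursor gene, fell by 0.51 ± 0.09 (adjusted p = 0.0282). Sdc2 and Lrp1 passed in 0 of the 6 omissions and App in 1, and omitting branching replicate 3 gave an adjusted p of 0.155 for Sdc2, 0.144 for Lrp1 and 0.130 for App. Without the variance trend the adjusted p was 0.133 for Sdc2, 0.249 for Lrp1 and 0.264 for App. Lrp1 also missed the threshold with median centring (adjusted p = 0.0601), and App without the filter on dim probe sets (adjusted p = 0.0648). Of the 23 genes, 10 were above background on all arrays, among them the integrin genes Itga3, Itgav, Itgb1 and Itgb5, which did not pass. At or below background on all arrays were 8. These included Itga5 and Itga8, which encode alpha subunits of integrins that bind fibronectin or tenascin, and Cd44, a receptor of osteopontin.

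Of 14 proteases and enzymes tested (18 on the array), 3 fell, 0 rose and 11 did not pass (median -0.15), against 1.13% and 0.902% of all probe sets. Bmp1, a protease gene whose product cleaves procollagens, fell by 0.79 ± 0.15 in log2 signal (SE of 3 against 3 arrays, limma adjusted p = 0.0265), from 2086 ± 162 (SD) to 1217 ± 215. Mmp14, the gene of a membrane-bound metalloproteinase, fell by 0.60 ± 0.09 (adjusted p = 0.0131), and Plat, the tissue plasminogen activator gene, fell by 0.82 ± 0.12 (adjusted p = 0.00856). A second Bmp1 probe set, from 1385 ± 187 to 791 ± 156, differed by -0.82 ± 0.18 and did not pass (adjusted p = 0.0546). The first Bmp1 probe set had an adjusted p of 0.0811 when dim probe sets were kept and of 0.107 without branching replicate 3. Without non-branching replicate 3 it was 0.0757 for Mmp14 and 0.0520 for Plat. Plat passed in 5 of the 6 omissions, Mmp14 in 3 and Bmp1 in 1, and none of the 3 passed without the variance trend.

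Of 29 genes tested that regulate matricellular genes through TGF-beta, YAP and TEAD or serum response factor, or as mesenchymal transcription factors (34 on the array), 2 fell, 1 rose and 26 did not pass (median -0.12), against the same 1.13% and 0.902%. Snai2, a zinc finger repressor gene of mesenchymal cells, rose by 0.99 ± 0.10 in log2 signal (SE of 3 against 3 arrays, limma adjusted p = 0.00142), from 1950 ± 78.7 (SD) to 3873 ± 240, and passed in all 6 omissions but missed the threshold when the variance trend was dropped (adjusted p = 0.0853). Ltbp4, the gene of a latent TGF-beta binding protein, fell by 0.85 ± 0.17 (adjusted p = 0.0392), passed in 0 of the 6 omissions and had an adjusted p of 0.125 without non-branching replicate 2. Twist1, a basic helix-loop-helix transcription factor gene of mesenchyme, was lower in branching (adjusted p = 0.0246), where 1 of 3 arrays was above background. With the dim branching arrays raised to the background level, the ratio of non-branching to branching was 3.18. The adjusted p of Twist1 was 0.106 without non-branching replicate 2. Twist1 passed in 2 of the 6 omissions. Ankrd1, a gene that YAP induces along with Ccn1 and Ccn2, was at or below background on all 6 arrays, as were Tgfb1 and Tgfbr2. On this list 19 genes were above background on all 6 arrays, among them Yap1, Tead2 and Amotl2, which did not pass.

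**Figure D4:**
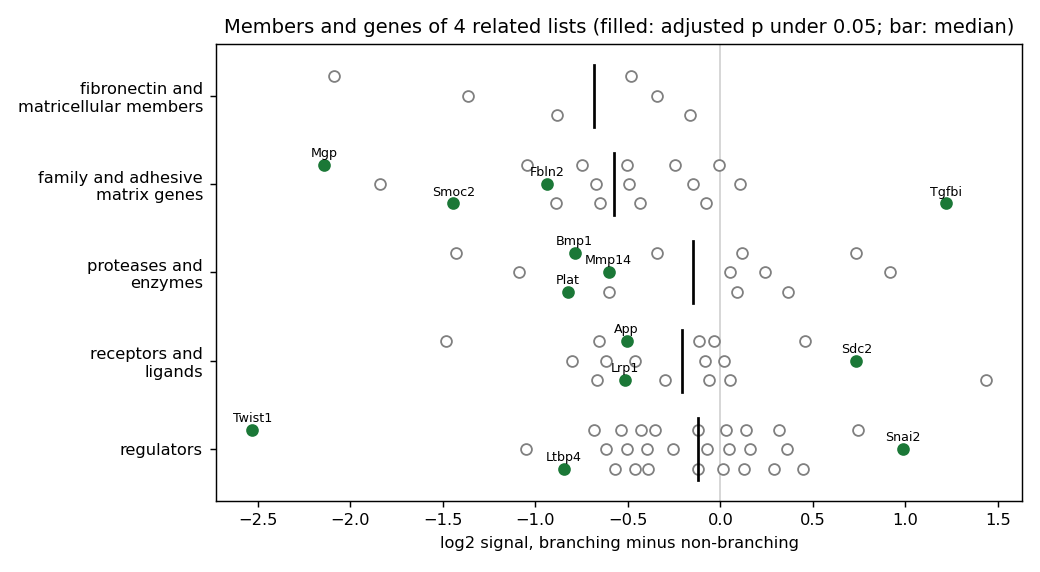
Difference of log2 signal, branching minus non-branching, of the 6 tested members and of the tested genes of 4 related lists; filled points passed at an adjusted p under 0.05, black bars are medians, and vertical position within a row has no meaning. Thbs2 in branching and Ccn1 in both regions were below background, so their points show measured values only. No member is filled, Mgp and Smoc2 lie farthest left among the filled family genes, and Tgfbi, Sdc2 and Snai2 are the filled points to the right of 0.

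Markers of other tissues also moved between the regions, and their counts stand against 1.13% of all probe sets lower and 0.902% higher. Of 6 smooth muscle genes tested, 4 fell and 0 rose, and their summed signal was 2452 to 3283 on the branching and 6330 to 7394 on the non-branching arrays, with Smtn at or below background throughout. Acta2 alone made up 46.7% of that sum, and a single gene made up 46.9% of the red blood cell sum, 41.2% of the neuronal and 40.2% of the cardiac one. Of 8 cartilage genes, 3 fell and 0 rose (3768 to 4048 against 6561 to 6999), with Acan and Matn1 at or below background. Of 8 endothelial genes, 1 fell (1886 to 2592 against 3286 to 3313), and of 7 red blood cell genes, 3 rose (137150 to 152169 against 88582 to 95933), with Epb42 at or below background. Of 7 cardiac muscle genes 1 fell (1931 to 2088 against 3245 to 4082), of 6 skeletal muscle genes 2 fell (2250 to 2742 against 3244 to 3947), and of 7 neuronal and neural crest genes 1 fell (3848 to 4342 against 4696 to 5166). No gene passed among 9 epithelial, 6 leukocyte, 3 mesothelial, 3 platelet, 3 liver and gut and 4 thyroid and thymus genes, and of the 9 lung and airway epithelial genes 6 were above background on every array and none was below it on all. Among the epithelial genes, Sftpc was higher in branching with no overlap (log2 difference 1.99, limma adjusted p = 0.0807). Foxa2 (-0.62, adjusted p = 0.0751) and Sox2 (-1.28, adjusted p = 0.0995) were lower with no overlap. Above background were 2 of 3 non-branching arrays for Sftpc and 1 of 3 branching arrays for Sox2. The part of these tissues in the values of Fn1, Postn, Tnc and Thbs2 was not tested. The arrays had medians of 212 to 229, and 57.9% to 61.2% of probe sets lay above background on each. The control probe sets had medians between 19.8 and 78.8, highest on non-branching replicate 2. That array also had the highest signals of Thbs2 and the brighter Tnc probe set. Postn, Sparc and the second Tnc probe set had their lowest non-branching signals on it, and Fn1 its middle one. The log2 difference of 3' over 5' actin probe sets ran from 0.20 to 0.75 and was highest on non-branching replicate 3. The part of either in the results was not tested.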

How the data were processed

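The deposited table holds 1 linear signal intensity per probe set and array. How the authors computed it is not stated in the labels. The mean of each array without its lowest and highest 2% of values was 499.9, as read from the values, so a common scaling had been applied; it was kept. Direction follows the sample titles. Whether a background correction was applied is unknown. Column medians ran from 212 to 229.

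Of 12488 probe sets, 66 controls were removed. The annotation gave 10833 of the rest 1 symbol, 396 several and 1193 none, and 10817 matched a RefSeq table (GRCm38.p6) by gene number. Values under 16 were set to 16, log2 was taken, and the dimmer 25% were left out, leaving 9316. The test was limma's (version 3.58.1, R 4.3.3; lmFit, then eBayes with a variance trend, two-sided) and adjusted by Benjamini-Hochberg. Background (147) was set at the 95th percentile over 19 bacterial and yeast control probe sets, 114 values in all. A gene with several probe sets was read from the brightest. Named list genes were those that passed, at most 4 per list. Some others were named without a fixed rule, for their signal against background or for values that did not overlap. The members and lists were chosen with earlier results of these data known. The fit was tested on simulated data. Alternatives were the replicate block, quantile and median scaling, other filters and floors, no trend, array weights, an adjusted p under 0.10 and leaving out each array.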

Additional observations from a re-analysis of the deposited data

How the results depend on the processing

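The count of members lower in branching was 0 in the reported fit, 2 with the dimmer 50% left out, 1 with a floor of 64, 2 with array weights, 3 at an adjusted p under 0.10, and 0 to 1 with 1 array left out (1 without branching replicate 1). It stayed 0 with the replicate block, quantile normalization, median centring, no filter, 16 added in place of the floor and no variance trend. No member rose in any of these, and the differences of Fn1, Sparc, Postn, Tnc and Thbs2 kept their sign in every setting that tested them (Thbs2 was not tested with the dimmer 50% left out). No member had more than 1 tested probe set, so averaging probe sets changed no count of members. Of all probe sets, 84 were higher and 105 lower; with the replicate block 44 and 70 were, without the filter 38 and 62, without the variance trend 5 and 17, and at an adjusted p under 0.10, 164 and 195. Leaving out 1 array gave 16 to 69 higher and 38 to 98 lower. The causes were not tested. The titles number the replicates of each region 1 to 3, but deviations of same-numbered arrays from their region means correlated at -0.015 to 0.013. No branching array correlated best with the non-branching array of its own number, and the reverse comparison was not made. Deviations from a mean of 3 arrays depend on each other, so the check is weak. Nothing here shows that the numbers pair the samples. Of the related genes that passed, Sdc2, Lrp1, App and Twist1 lost their call under the replicate block, and Fbln2, App, Bmp1, Ltbp4 and Twist1 without the filter. Signal limits Ccn1, Ccn2, the second Tnc probe set and the branching values of Postn, Tnc and Thbs2. These lie near or below the background level, except Tnc on branching replicate 1 (263).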

Other observations

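The annotation assigns 1 tested probe set to both Pald1 and Thbs1, so its signal cannot be given to either gene and it was counted with no member. It read 612, 665 and 744 on branching replicates 1 to 3 and 240.3, 206 and 297 on non-branching replicates 1 to 3, all above background, with means of 674 ± 66.4 (SD, n = 3) and 248 ± 45.6. Its branching values were the higher ones with no overlap, by 1.45 ± 0.22 on the log2 scale (SE, limma adjusted p = 0.0120). It passed in 5 of the 6 omissions of an array. Its adjusted p was 0.0721 without branching replicate 3 and 0.0700 without the variance trend.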
